A study of Mus musculus with 8 samples.

Results

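The glycolysis and hypoxia genes described here are 36 of the 50600 genes in 3 tables of expression changes from mouse embryonic fibroblasts undergoing direct cardiac reprogramming. They were taken by symbol from a list drawn up with earlier results of these data known, though no measured value enters the rule, and each symbol matched 1 row of the tables. The list holds 29 transporters, enzymes and enzyme regulators of glycolysis and lactate handling and 7 genes of the response to low oxygen. All cells were C57BL/6 fibroblasts that carried retroviruses for the GHMT factors (Gata4, Hand2, Mef2c and Tbx5), a set that pushes fibroblasts towards a heart muscle-like state, and were grown in StemPro-34 serum-free medium. RNA was sequenced after 7 days in one of 4 treatments, with 2 libraries for each. These were 5 µM I-CBP112, a ligand of the CBP and p300 bromodomains, 5 µM C646, an inhibitor of the acetyltransferase activity of CBP and p300, 1% DMSO and 0.1% ethanol. The sources used here do not name the solvent of either inhibitor. An inhibitor and its solvent therefore cannot be told apart in any comparison here, be it with ethanol, with DMSO or between the inhibitors. DMSO and ethanol also differed in concentration. There was no group without the reprogramming factors, so all comparisons are among reprogramming cultures. Whether the 2 libraries of a group came from separate cultures is not stated, so the p-values measure only the spread between these libraries.

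Glycolysis breaks glucose down to pyruvate in the cytoplasm. Most of its steps can be run by several isoenzymes from different genes, some typical of muscle or heart and some of most other tissues. Pyruvate is then reduced to lactate by lactate dehydrogenase or enters mitochondria, where pyruvate dehydrogenase kinases hold back its oxidation. The transcription factor HIF-1, whose alpha subunit is destroyed by prolyl hydroxylases when oxygen is plentiful, raises transcription of many glycolytic genes in low oxygen through sites with the core ACGTG or GCGTG. Heart muscle cells oxidise mainly fatty acids and lactate, while fibroblasts in culture rely more on glycolysis.

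The tables hold the authors' own DESeq2 comparisons of I-CBP112, C646 and DMSO with a shared group that they do not name, read here as ethanol, the 1 group that has no table of its own. Values of single libraries are not analysed here, so each level below is a group mean rebuilt from the authors' mean normalised count over all 8 libraries and the 3 fold changes. The error of a difference is the authors' standard error (SE). The mean normalised counts sum to 37997801, the depth behind an average library after normalisation; single depths are not analysed here. The C646 table gave an adjusted p for all 36 members, and the DMSO and I-CBP112 tables for 35. The exception was Ankrd37, a HIF-1 target with a mean normalised count of 25.9, under 26.1, the lowest with an adjusted p in the DMSO and I-CBP112 tables. A member is said below to have risen or fallen where its Benjamini-Hochberg adjusted p was below 0.05.

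Against ethanol, I-CBP112 and DMSO each came with higher transcript levels of a run of glycolytic enzymes, and C646 did not. In the authors' deposited tables, 9 members rose and 1 fell with I-CBP112, and 9 rose and 2 fell with DMSO. The share called was 28.6% of the 35 tested members with I-CBP112, against 9.90% of all 14830 tested genes. With DMSO it was 31.4% of the members, against 16.0% of all tested genes. The excess lay on the higher side. The list was drawn up with earlier results of these data known, so part of this excess may be built in. With I-CBP112, 25.7% of the members rose, against 4.65% of all tested genes, and 2.86% fell, against 5.25%. With DMSO, 25.7% rose, against 8.07%, and 5.71% fell, against 7.90%. With C646, 0 members were called and 0 had an unadjusted p under 0.05 in the authors' deposited DESeq2 table, where 0.00584% of genes (2 of 34250) were called, 0.00292% higher and 0.00292% lower. The members' median log2 fold change was 0.24 with I-CBP112, 0.01 with C646 and 0.15 with DMSO in the authors' deposited tables, against medians over all tested genes of 0.01, 0.00 and 0.03. All 3 comparisons share the ethanol libraries, so an odd ethanol library would move them together. Every call against ethanol was lost when the Wald statistics were referred to a t distribution with 4 degrees of freedom, which left 1 gene called with DMSO and 0 with I-CBP112 among all genes tested. Unadjusted, that distribution kept 10 members with p under 0.05 with I-CBP112 and 11 with DMSO. The share of all tested genes under that unadjusted threshold was not computed, so these counts show no excess.

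**Figure D1:**
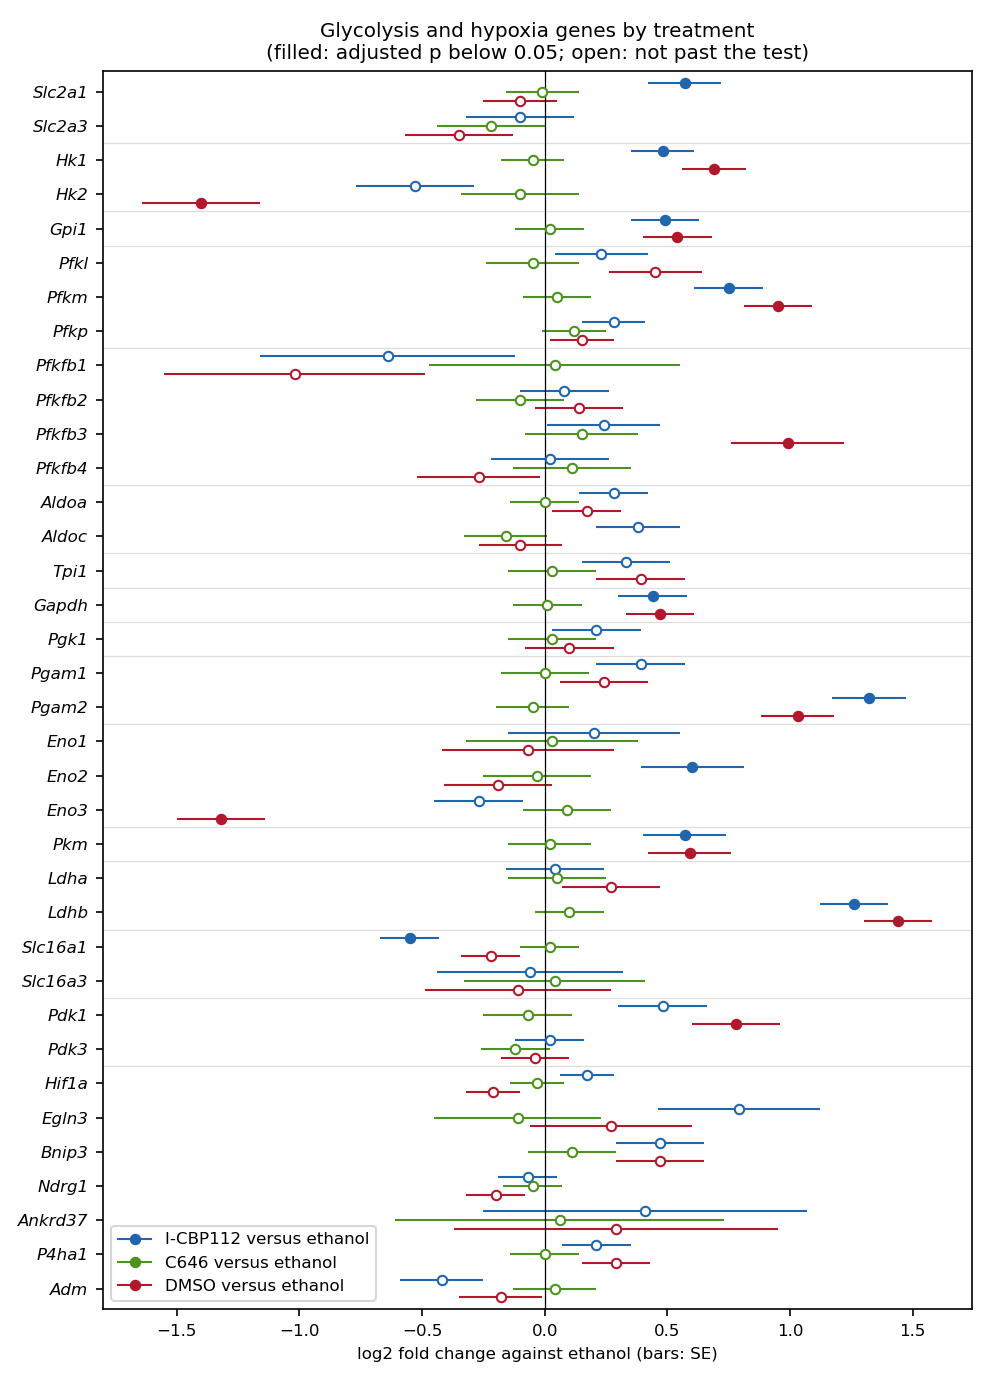
Log2 fold change against ethanol of all 36 members (x axis) with the authors' SE as bars, for I-CBP112, C646 and DMSO, grouped by pathway step from glucose uptake at the top to the hypoxia genes at the bottom. Filled points have an adjusted p below 0.05: 10 for I-CBP112, 0 for C646 and 11 for DMSO. The C646 points all lie between -0.22 and 0.15, while Pgam2 and Ldhb lie above 1 with both I-CBP112 and DMSO.

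Markers of cell types moved with the same treatments. For scale, 4.65% of all tested genes rose and 5.25% fell with I-CBP112, and 8.07% rose and 7.90% fell with DMSO. The shorter lists below are too small to be set against these shares. Of 14 tested heart muscle markers, 14 rose with I-CBP112, 0 with C646 and 11 with DMSO in the authors' deposited tables. The summed level of this list was 378419 mean normalised counts with I-CBP112, 137960.2 with C646, 387748 with DMSO and 135544 with ethanol. No heart muscle marker was at 0 over all libraries, but the ventricular light chains Myl2 and Myl3 were near 0 and had no adjusted p in the DMSO and I-CBP112 tables. Of 10 fibroblast markers, 7 fell with I-CBP112, 0 with C646 and 8 with DMSO in the authors' deposited tables. Their summed level was 527709 with I-CBP112, 935429.6 with C646, 590364 with DMSO and 953265 with ethanol, so the labelled fibroblast origin could be read in every group. The part of this shift in the members' changes was not tested, and in bulk RNA more cells of a type and more RNA per cell cannot be told apart. Skeletal muscle markers did not move as a list: of 5 tested, 1 rose with I-CBP112, and 1 rose and 2 fell with DMSO, and Myod1 was at 0. Macrophage and leukocyte (6 tested), endothelial (2), adipocyte (5) and dividing cell (8) markers had 2, 1, 3 and 2 members lower with I-CBP112 and 0, 1, 2 and 0 lower with DMSO, and none higher. None of these lists had a call with C646, and no red blood cell marker had an adjusted p in the DMSO table.

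Glucose enters through facilitative transporters. The level of Slc2a1, which encodes the widespread transporter GLUT1, was 1949 mean normalised counts with I-CBP112, 1301 with C646, 1226.5 with DMSO and 1310.2 with ethanol. I-CBP112 stood alone above the other 3 groups, which lay within a narrow band. In the authors' deposited table the log2 fold change with I-CBP112 was 0.57 (SE 0.15, adjusted p 0.00274). With C646 it was -0.01 (SE 0.15) and with DMSO -0.10 (SE 0.15) in the authors' deposited tables, and neither passed. Slc2a3, which encodes the high-affinity transporter GLUT3, was lower in level, at 337.7 with I-CBP112, 311.0 with C646, 284.8 with DMSO and 363.1 with ethanol, and passed in no comparison.

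Hexokinase traps glucose in the cell as glucose 6-phosphate. Its isoenzymes split by direction with DMSO. Hk1 (chromosome 10, 62268855 to 62379908, minus strand, GRCm38), the form found in most tissues, had 3737 mean normalised counts with I-CBP112, 2599 with C646, 4319 with DMSO and 2682 with ethanol. Its log2 fold change was 0.48 (SE 0.13, adjusted p 0.00416) with I-CBP112 and 0.69 (SE 0.13, adjusted p 3.89e-06) with DMSO in the authors' deposited tables. Hk2 (chromosome 6, 82725025 to 82774454, minus strand), the form typical of insulin-responsive muscle and of many growing cells, had 311.5 mean normalised counts with I-CBP112, 418.3 with C646, 170.5 with DMSO and 449.2 with ethanol. The DMSO mean was the lowest of the 4 for Hk2 and the highest for Hk1. Hk2 fell by 1.40 on the log2 scale with DMSO (SE 0.24, adjusted p 3.67e-07) in the authors' deposited table, to 0.38 of the ethanol level. With I-CBP112 its log2 fold change of -0.53 (SE 0.24, adjusted p 0.167) did not pass in the authors' deposited table. The hypoxia core ACGTG is in RefSeq promoter windows of 21 of the 34 members that have one, Hk1 as well as Hk2 among them. By windows, it is in 48.1% of those of the members and 19.6% of all. The 250 bases before the RefSeq start of Hk2 are shown because Hk2 is one of the 2 members that fell with DMSO. They hold this core at bases -226 to -222 and -52 to -48 from the start, unlike the other 3 promoters printed. They are RefSeq sequence of GRCm38.p6, chr6:82774455-82774704, minus strand, 5′ to 3′, with the cores in capitals as they read on this strand (CACGT, the reverse complement).
Hk2: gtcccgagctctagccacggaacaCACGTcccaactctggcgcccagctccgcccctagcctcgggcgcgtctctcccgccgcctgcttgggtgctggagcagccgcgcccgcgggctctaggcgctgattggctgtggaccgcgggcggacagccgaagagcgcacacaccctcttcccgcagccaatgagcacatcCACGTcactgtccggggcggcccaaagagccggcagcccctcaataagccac

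The next steps rearrange glucose 6-phosphate and add a second phosphate. Gpi1, glucose-6-phosphate isomerase, had 12192 mean normalised counts with I-CBP112, 8757 with C646, 12587 with DMSO and 8653 with ethanol. It rose by 0.49 (SE 0.14, adjusted p 0.0094) with I-CBP112 and by 0.54 (SE 0.14, adjusted p 0.0023) with DMSO on the log2 scale in the authors' deposited tables. Of the phosphofructokinase genes, which serve the main control point of glycolysis, Pfkm changed and the others did not pass. Pfkm (chromosome 15, 98092589 to 98132451, plus strand), the muscle form, had 2722 mean normalised counts with I-CBP112, 1669.7 with C646, 3109 with DMSO and 1614 with ethanol. Its log2 fold change was 0.75 (SE 0.14, adjusted p 3.36e-06) with I-CBP112, 0.05 (SE 0.14) with C646 and 0.95 (SE 0.14, adjusted p 6.61e-10) with DMSO in the authors' deposited tables. Pfkl, the liver form, had log2 fold changes of 0.23 (SE 0.19, adjusted p 0.607) with I-CBP112 and 0.45 (SE 0.19, adjusted p 0.0946) with DMSO in the authors' deposited tables. Pfkp, the platelet form, had 0.28 (SE 0.13, adjusted p 0.172) with I-CBP112 and 0.15 (SE 0.13, adjusted p 0.512) with DMSO in the same authors' deposited tables. Exons of Pfkp overlap those of the antisense gene Pitrm1 by 748 bases, and Pitrm1 had 90.7% of the Pfkp count. The exon overlap of Pfkm with the antisense gene Senp1 is 18 bases, and Senp1 had 35.6% of its count. The library kit is not stated to keep strand, so reads of such pairs may not be separable.

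The PFK-2 genes make and remove fructose 2,6-bisphosphate, the activator of phosphofructokinase. Pfkfb3, whose product strongly favours making it, had 318.8 mean normalised counts with I-CBP112, 299.6 with C646, 535.9 with DMSO and 269.7 with ethanol. DMSO stood alone above the other 3 groups. The log2 fold change with DMSO was 0.99 (SE 0.23, adjusted p 0.00021) in the authors' deposited table, against 0.24 in that of I-CBP112 (SE 0.23, adjusted p 0.684). Pfkfb2, the heart form, had between 549.4 and 646.1 mean normalised counts over the 4 groups and Pfkfb4 between 167.7 and 217.1, and neither passed in any comparison. Pfkfb1, the liver and muscle form, was low, at 29 mean normalised counts with I-CBP112, 46.3 with C646, 22.2 with DMSO and 45.1 with ethanol. Its exons overlap 123 bases of the antisense gene Apex2, which had 670% of its count.

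In the middle of the pathway, most enzymes gave small changes. Aldoa, the main aldolase, had 25089 mean normalised counts with I-CBP112, 20733 with C646, 23320.4 with DMSO and 20686 with ethanol and did not pass. Aldoc, the brain-type aldolase, had 841.4 with I-CBP112, 577.1 with C646, 599.6 with DMSO and 644.4 with ethanol, and its log2 fold change of 0.38 with I-CBP112 (SE 0.17, adjusted p 0.143) did not pass in the authors' deposited table. Tpi1, triosephosphate isomerase, had log2 fold changes of 0.33 (SE 0.18, adjusted p 0.318) with I-CBP112 and 0.39 (SE 0.18, adjusted p 0.141) with DMSO in the authors' deposited tables. Pgk1, phosphoglycerate kinase, which makes the first ATP of the pathway, had 0.21 (SE 0.18, adjusted p 0.615) with I-CBP112 and 0.10 (SE 0.18, adjusted p 0.797) with DMSO in the authors' deposited tables. Gapdh, the dehydrogenase often used as a reference gene, did change. Its level was 28189.9 mean normalised counts with I-CBP112, 20962 with C646, 28746 with DMSO and 20819 with ethanol. It rose by 0.44 (SE 0.14, adjusted p 0.0177) with I-CBP112 and by 0.47 (SE 0.14, adjusted p 0.00647) with DMSO on the log2 scale in the authors' deposited tables. Gapdh has 59 near-identical copies with counts, at 95% identity or more over at least 50% of its coding length, which took 5.02% of the count of gene and copies together. With the copies added the log2 changes were 0.45 with I-CBP112, 0.02 with C646 and 0.48 with DMSO.

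Phosphoglycerate mutase moves the phosphate of 3-phosphoglycerate. Pgam1, the widespread form, had 11126 mean normalised counts with I-CBP112, 8467 with C646, 9994 with DMSO and 8471 with ethanol and did not pass in any comparison. Of the summed count of Pgam1 and its processed copy Pgam1-ps2, 6.84% belonged to the copy. Pgam2 (chromosome 11, 5801640 to 5803733, minus strand), the muscle form, had 3094 mean normalised counts with I-CBP112, 1193 with C646, 2532 with DMSO and 1237 with ethanol. The groups fell into 2 levels, I-CBP112 and DMSO high and C646 and ethanol low. The authors' deposited tables gave log2 fold changes of 1.32 (SE 0.15, adjusted p 2.69e-17) with I-CBP112, -0.05 (SE 0.15) with C646 and 1.03 (SE 0.15, adjusted p 8.25e-11) with DMSO. With C646 the 95% interval ran from -0.34 to 0.24. The MEF2 consensus is in RefSeq promoter windows of 2 members, Pgam2 and Pfkfb1. That is 3.85% of the member windows, near the 3.19% of all windows. Pfkfb1 had log2 fold changes of -0.64 (SE 0.52) with I-CBP112 and -1.02 (SE 0.53) with DMSO in the authors' deposited tables. Neither passed. Among the members, Pgam2 had the highest fold change with I-CBP112. Its promoter is shown for that reason, as RefSeq sequence of GRCm38.p6, chr11:5803797-5804046, minus strand, 5′ to 3′. The capitals mark a CATCTG, a site recognised by Hand factors, at -105 to -100 and the MEF2 consensus at -80 to -71 from the start.
Pgam2: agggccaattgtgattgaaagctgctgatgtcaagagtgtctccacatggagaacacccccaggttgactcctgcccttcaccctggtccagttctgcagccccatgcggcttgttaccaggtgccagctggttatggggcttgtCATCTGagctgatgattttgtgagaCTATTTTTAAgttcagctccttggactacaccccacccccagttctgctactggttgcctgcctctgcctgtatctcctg

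Enolase makes phosphoenolpyruvate and has 3 genes on the list, of which Eno2 passed with I-CBP112 and Eno3 with DMSO. Eno1, the widespread form, had 19187 mean normalised counts with I-CBP112, 17070.4 with C646, 15934 with DMSO and 16712 with ethanol, with a wide SE of 0.35 on the log2 scale in the authors' deposited tables, and did not pass. Eno2, the neuronal form, had 399.1 with I-CBP112, 256.6 with C646, 230.2 with DMSO and 262.5 with ethanol. It rose by 0.60 with I-CBP112 on the log2 scale (SE 0.21, adjusted p 0.0478) in the authors' deposited table. This call was lost when p-values were adjusted over every gene with one (adjusted p 0.108) and when fold changes were centred on the median gene (0.0566). Eno3 (chromosome 11, 70657202 to 70662513, plus strand), the form of striated muscle, had 967.5 mean normalised counts with I-CBP112, 1236 with C646, 465.0 with DMSO and 1164 with ethanol. It fell by 1.32 on the log2 scale with DMSO (SE 0.18, adjusted p 1.37e-11) in the authors' deposited table, to 0.40 of the ethanol level, while the muscle forms Pfkm and Pgam2 rose there. With I-CBP112 its log2 fold change was -0.27 (SE 0.18, adjusted p 0.457) in the authors' deposited table. Its promoter is shown for comparison with that of Pgam2, the other muscle isoform that moved strongly and in the opposite direction with DMSO. It is RefSeq sequence of GRCm38.p6, chr11:70656926-70657175, plus strand, 5′ to 3′. The capitals mark the core GCGTG at -130 to -126, which lies on the other strand and reads CACGC here. The GATA site AGATAA, from base -4 to base 2, crosses the start and is not wholly in the run shown.
Eno3: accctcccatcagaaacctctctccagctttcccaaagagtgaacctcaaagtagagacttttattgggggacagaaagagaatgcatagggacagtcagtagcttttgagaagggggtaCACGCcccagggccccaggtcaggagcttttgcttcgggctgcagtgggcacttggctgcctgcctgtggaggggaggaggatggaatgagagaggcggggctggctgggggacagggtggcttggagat

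Pkm, pyruvate kinase, was the most abundant member, with 46791 mean normalised counts with I-CBP112, 31878.5 with C646, 47365 with DMSO and 31431 with ethanol. It rose by 0.57 (SE 0.17, adjusted p 0.0111) with I-CBP112 and by 0.59 (SE 0.17, adjusted p 0.00548) with DMSO on the log2 scale in the authors' deposited tables. The tables give 1 value per gene, so the splice forms PKM1 and PKM2 are not separated. Lactate dehydrogenase interconverts pyruvate and lactate. Ldha, the form that favours lactate production in muscle and growing cells, had 8726 mean normalised counts with I-CBP112, 8733.5 with C646, 10222 with DMSO and 8462 with ethanol, and none of its changes passed. Ldhb (chromosome 6, 142490249 to 142507957, minus strand), the heart form, had 3791 with I-CBP112, 1701.5 with C646, 4319.9 with DMSO and 1587 with ethanol. The authors' deposited tables gave Ldhb log2 fold changes of 1.26 (SE 0.14, adjusted p 1.5e-16) with I-CBP112, 0.10 (SE 0.14) with C646 and 1.44 (SE 0.14, adjusted p 3.08e-22) with DMSO. The DMSO value, 2.72 times the ethanol level, was the highest fold change of any member in the 3 tables. For that reason its promoter is shown, as RefSeq sequence of GRCm38.p6, chr6:142507958-142508207, minus strand, 5′ to 3′. The capitals mark the core GCGTG at -126 to -122.
Ldhb: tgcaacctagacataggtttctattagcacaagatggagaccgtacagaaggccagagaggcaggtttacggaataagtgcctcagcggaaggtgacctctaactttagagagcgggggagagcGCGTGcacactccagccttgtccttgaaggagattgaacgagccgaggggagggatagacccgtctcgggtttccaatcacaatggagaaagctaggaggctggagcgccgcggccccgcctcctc

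Lactate leaves and enters cells through monocarboxylate transporters. Slc16a1, which encodes MCT1, was the only member that fell with I-CBP112. Its level was 3081 mean normalised counts with I-CBP112, 4586 with C646, 3895 with DMSO and 4522 with ethanol. It fell by 0.55 on the log2 scale with I-CBP112 (SE 0.12, adjusted p 0.000223) in the authors' deposited table, while the DMSO value of -0.22 (SE 0.12, adjusted p 0.26) did not pass. Slc16a3, which encodes the lactate exporter MCT4, was low in all groups, between 120.0 and 133.2, and passed in no comparison. Pdk1, a kinase that switches off pyruvate dehydrogenase, had 1553 mean normalised counts with I-CBP112, 1060.0 with C646, 1914 with DMSO and 1111.5 with ethanol. It rose by 0.78 on the log2 scale with DMSO (SE 0.18, adjusted p 0.000176) in the authors' deposited table. With I-CBP112 its log2 fold change of 0.48 (SE 0.18, adjusted p 0.0608) missed the threshold in the authors' deposited table, and passed at 0.0457 when the groups were scaled to equal totals. Pdk3, another kinase of the same enzyme, stayed between 1111 and 1222.5 in the 4 groups and did not pass.

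**Figure D2:**
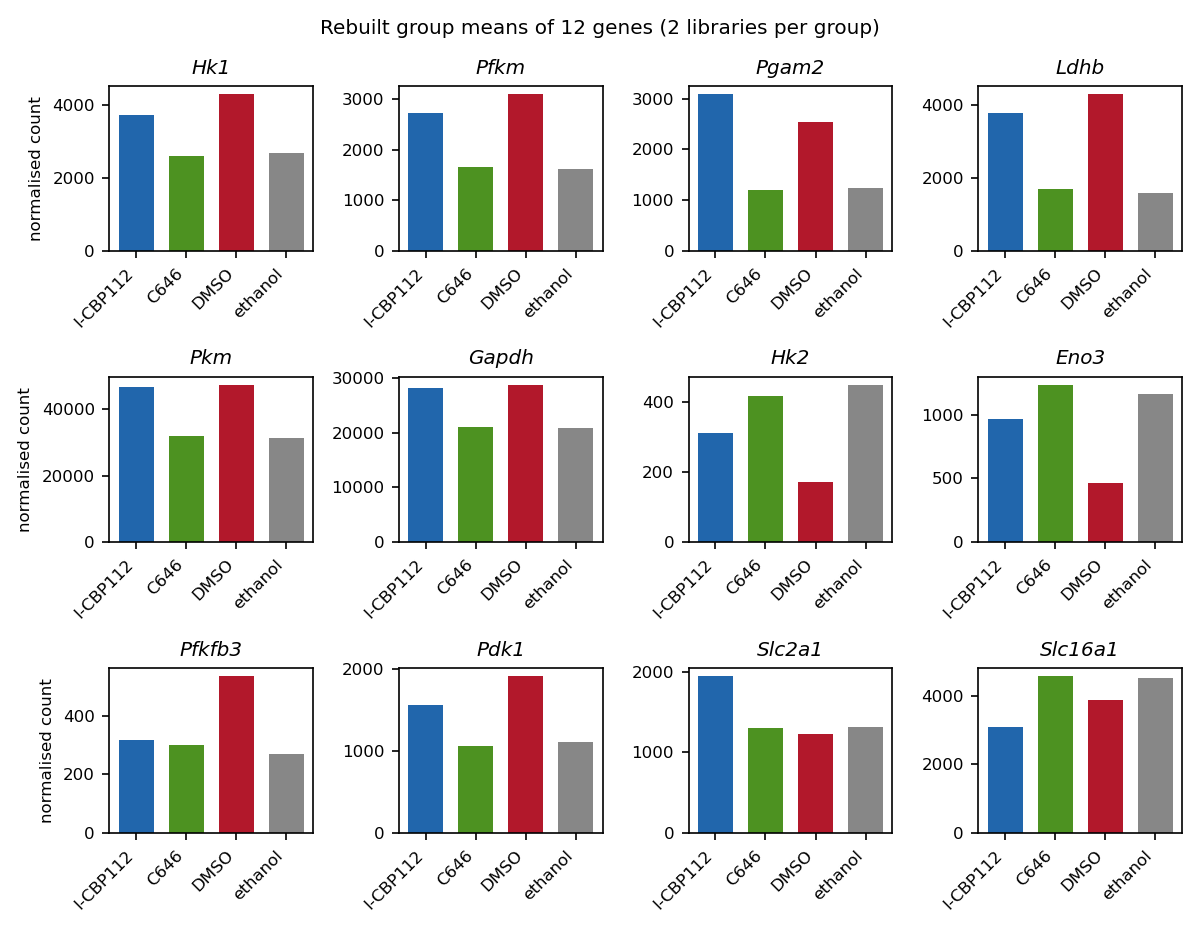
Rebuilt mean normalised count (y axis, from 0) of 12 members in I-CBP112, C646, DMSO and ethanol, each bar the mean of 2 libraries with no error of its own. Hk1, Pfkm, Pgam2, Ldhb, Pkm and Gapdh are high with I-CBP112 and DMSO. Hk2, Eno3 and Pfkfb3 stand apart with DMSO, and Slc2a1 with I-CBP112. Slc16a1 is lowest with I-CBP112, with DMSO between it and ethanol.

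Since isoenzymes of a step moved unequally, the make-up of several steps shifted. Shares were taken per kilobase of the longest protein-coding transcript of each gene. Hk2 made up 6.07% of hexokinase transcripts per kilobase with I-CBP112, 11.1% with C646, 2.97% with DMSO and 11.5% with ethanol. Pfkm made up 35.6% of phosphofructokinase with I-CBP112, 28.4% with C646, 37.6% with DMSO and 28.1% with ethanol. With DMSO it stood level with Pfkl, at 37.6% against 37%, whereas in ethanol Pfkl led with 39%. The mutase and dehydrogenase steps shifted towards the striated muscle and heart forms. Pgam2 made up 37% of its step with I-CBP112, 22.9% with C646, 34.9% with DMSO and 23.6% with ethanol. Ldhb made up 37.7% of its step with I-CBP112, 21.3% with C646, 37% with DMSO and 20.7% with ethanol. Eno3 went the other way, at 6.05% of enolase with I-CBP112, 8.49% with C646, 3.61% with DMSO and 8.19% with ethanol. On the log2 scale, the fold change of Ldhb exceeded that of Ldha by 1.21 (SE 0.25) with I-CBP112, 0.05 (SE 0.25) with C646 and 1.17 (SE 0.25) with DMSO. That of Pgam2 exceeded that of Pgam1 by 0.93 (SE 0.23) with I-CBP112 and 0.80 (SE 0.23) with DMSO. The fold change of Hk1 exceeded that of Hk2 by 1.01 (SE 0.27) with I-CBP112 and 2.08 (SE 0.28) with DMSO. Other pairs were less clear. Eno3 minus Eno1 was -0.47 (SE 0.39) with I-CBP112 and -1.26 (SE 0.39) with DMSO, so the enolase shift with I-CBP112 was near its error. Pfkm minus Pfkl was 0.52 (SE 0.24) with I-CBP112 and 0.50 (SE 0.24) with DMSO. These SEs treat the genes as independent, and no p-value was computed for differences between genes.

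**Figure D3:**
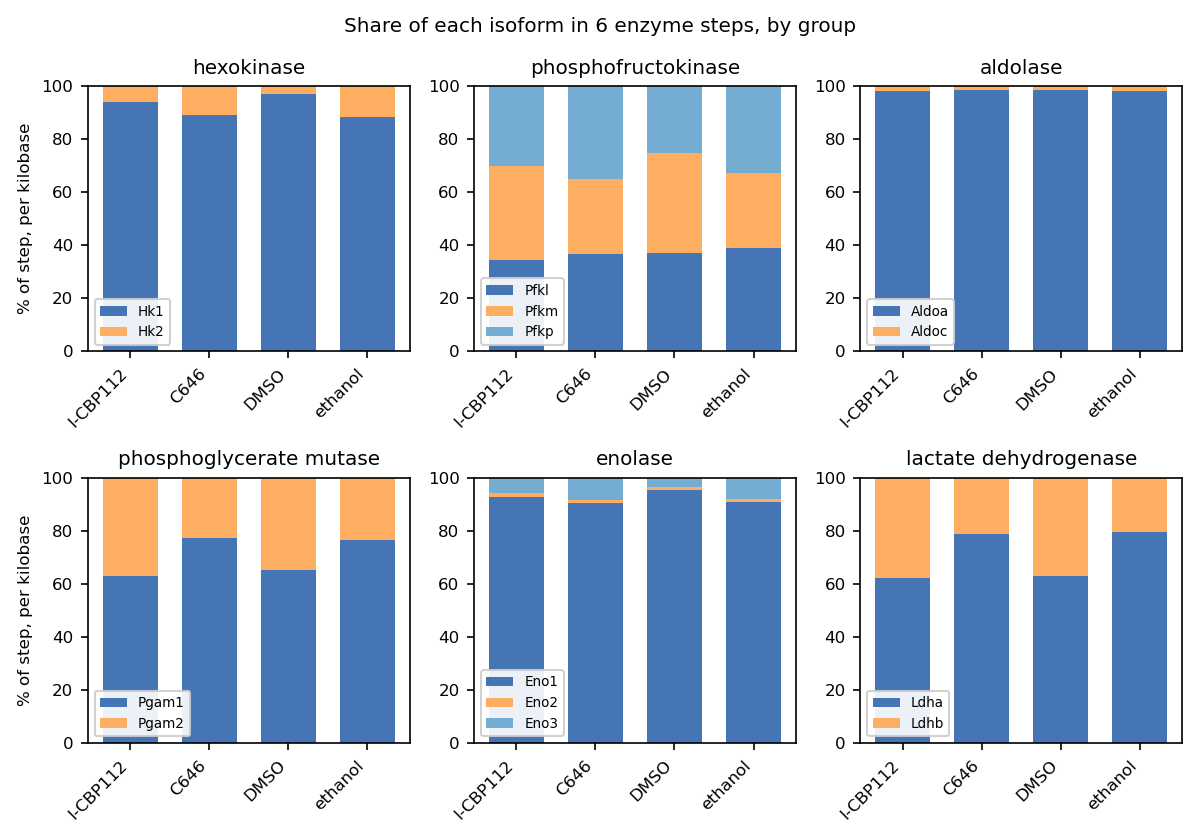
Share of each isoenzyme gene in 6 glycolytic steps (y axis, percent of the step's rebuilt mean normalised count per kilobase of transcript) in I-CBP112, C646, DMSO and ethanol. Pfkm, Pgam2 and Ldhb take more of their step with I-CBP112 and DMSO than with C646 and ethanol, and Hk2 and Eno3 take less, with the aldolase step almost all Aldoa throughout.

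Of the 7 hypoxia genes, 6 were tested, and 0 were called against ethanol in any of the authors' deposited tables. Over all tested genes the share called was 9.90% with I-CBP112, 0.00584% with C646 and 16.0% with DMSO. With only 6 genes, a count of 0 cannot be told apart from these shares. Unadjusted, 3 of the 6 had p under 0.05 with I-CBP112, 0 with C646 and 2 with DMSO in the authors' deposited DESeq2 tables. The share of all genes under that unadjusted threshold was not computed. Their median log2 fold change was 0.19 with I-CBP112, -0.02 with C646 and 0.04 with DMSO, against 0.28, 0.02 and 0.15 for the 29 enzymes and transporters, and the difference between these lists was not tested. Hif1a, the oxygen-regulated subunit of HIF-1, had 13937 mean normalised counts with I-CBP112, 12084 with C646, 10722 with DMSO and 12373 with ethanol. Its log2 fold changes were 0.17 (SE 0.11, adjusted p 0.464) with I-CBP112, -0.03 (SE 0.11) with C646 and -0.21 (SE 0.11, adjusted p 0.243) with DMSO in the authors' deposited tables. HIF-1 alpha is controlled largely as a protein, which these data do not measure. Bnip3, a mitophagy receptor and HIF-1 target, came nearest to a call, at 0.47 (SE 0.18) with both I-CBP112 (adjusted p 0.082) and DMSO (adjusted p 0.0638) in the authors' deposited tables. Egln3, an oxygen-sensing prolyl hydroxylase that HIF-1 itself induces, had only 148.1 mean normalised counts with I-CBP112, 79.4 with C646, 103.1 with DMSO and 85.7 with ethanol. Its log2 fold change with I-CBP112 was 0.79 (SE 0.33, adjusted p 0.12) in the authors' deposited table. Adm, which encodes the vasodilator peptide adrenomedullin, had -0.42 (SE 0.17, adjusted p 0.118) with I-CBP112 and -0.18 (SE 0.17, adjusted p 0.563) with DMSO in the authors' deposited tables. Ndrg1 had -0.07 (SE 0.12) with I-CBP112 and -0.20 (SE 0.12) with DMSO, and P4ha1, a collagen prolyl hydroxylase, had 0.21 (SE 0.14) and 0.29 (SE 0.14) with the same treatments in the authors' deposited tables. Ankrd37 had 30 mean normalised counts with I-CBP112, 23.5 with C646, 27.6 with DMSO and 22.6 with ethanol. Exons of the antisense gene Ufsp2, with 1118 mean normalised counts, overlap those of Ankrd37 by 57 bases. The intervals of several of these genes remain wide. That of Egln3 with DMSO ran from -0.39 to 0.92, so a rise of the size seen for Pdk1 lies inside it.

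Differences between the treatments themselves were computed from the fold changes, with an SE rebuilt from the 3 deposited ones, and are not the authors' tests. I-CBP112 and DMSO differed in 7 members, 6 higher and 1 lower with I-CBP112. That is 20.0% of the tested members, against 6.97% of all tested genes, of which 4.31% were higher and 2.66% lower. Eno3 had 967.5 mean normalised counts with I-CBP112 and 465.0 with DMSO, a log2 difference of 1.06 (SE 0.18, adjusted p 5.72e-07). Hk2, with 311.5 under I-CBP112 and 170.5 under DMSO, differed by 0.87 (SE 0.25, adjusted p 0.00988). Both genes that had fallen with DMSO were thus higher with I-CBP112 than with DMSO. This rests on the same DMSO libraries as the fall against ethanol, so it is not separate support. An odd DMSO library would move every comparison that holds DMSO. Eno2 (0.79, SE 0.21, adjusted p 0.00585), Slc2a1 (0.67, SE 0.15, adjusted p 0.000437), Aldoc (0.49, SE 0.17, adjusted p 0.049) and Hif1a (0.38, SE 0.11, adjusted p 0.0197) were also higher with I-CBP112. Hif1a was the single hypoxia gene among them. Pfkfb3, with 318.8 under I-CBP112 and 535.9 under DMSO, was lower, by -0.75 (SE 0.22, adjusted p 0.017). The enzymes that rose with both treatments did not pass between them. Their log2 differences were 0.29 for Pgam2 (95% interval 0.01 to 0.57, adjusted p 0.268), -0.19 for Ldhb (-0.46 to 0.08), -0.19 for Pfkm (-0.46 to 0.08), -0.21 for Hk1 (-0.46 to 0.05), -0.05 for Gpi1 (-0.33 to 0.24), -0.03 for Gapdh (-0.29 to 0.24) and -0.02 for Pkm (-0.35 to 0.32). These 7 intervals reach from -0.46 to 0.57. Only Eno3 passed with the upper bound of the SE, which takes both fold changes as independent, and 0 members passed with the t distribution.

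**Figure D4:**
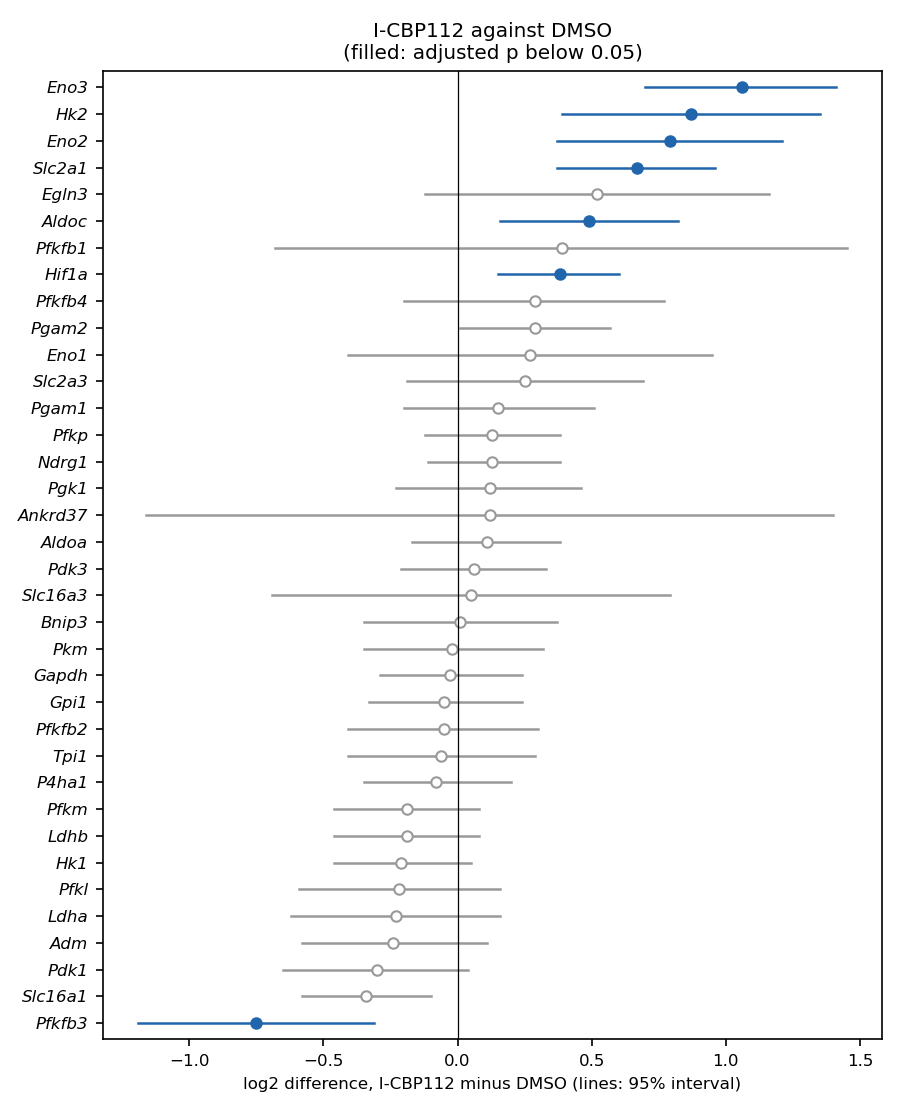
Log2 difference of I-CBP112 minus DMSO (x axis) for all 36 members, with 95% intervals as lines, sorted from highest to lowest. Filled points have an adjusted p below 0.05: 6 lie above 0, led by Eno3 at 1.06, and Pfkfb3 lies below 0 at -0.75.

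C646 and DMSO differed in 11 members, 2 higher and 9 lower with C646, which is 31.4% of the members against 15.8% of all tested genes (7.98% higher, 7.86% lower). Ldhb had 1701.5 mean normalised counts with C646 and 4319.9 with DMSO, a log2 difference of -1.34 (SE 0.14, adjusted p 2.58e-19). Eno3 was higher by 1.41 (SE 0.18, adjusted p 3.91e-13) and Hk2 by 1.29 (SE 0.24, adjusted p 3.43e-06) with C646. The DMSO libraries are again the same, so these differences do not add to those of DMSO against ethanol. The other 8 lower members were Pgam2, Pfkm, Pdk1, Pfkfb3, Hk1, Pkm, Gpi1 and Gapdh, with log2 differences from -1.09 to -0.46. I-CBP112 and C646, both given at 5 µM, differed in 12 members, 11 higher and 1 lower with I-CBP112. That is 34.3% of the members against 9.80% of all tested genes (4.69% higher, 5.11% lower). The solvents of the 2 inhibitors are not named, so a difference in solvent cannot be told apart from one between the inhibitors. Pgam2 differed most, with 3094 under I-CBP112 and 1193 under C646, a log2 difference of 1.38 (SE 0.15, adjusted p 1.08e-18). Ldhb followed with 1.16 (SE 0.14, adjusted p 4.59e-14) and Pfkm with 0.70 (SE 0.14, adjusted p 1.83e-05). Slc16a1 was the lower one, at -0.57 (SE 0.12, adjusted p 0.000114). With the upper bound of the SE, 7 members remained called between C646 and DMSO and 4 between I-CBP112 and C646, namely Pgam2, Ldhb, Pfkm and Slc16a1. With the t distribution 0 remained in either. The share of all tested genes called with the upper bound of the SE was not computed for any pair of treatments.

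Since the comparisons with ethanol share the ethanol libraries, agreement between them is not counted here, but pairs of comparisons without a common library can be set side by side. Both comparisons of such a pair still rest on 1 estimate of each gene's spread over all 8 libraries. Their calls are thus not independent. DMSO against ethanol raised 9 members and I-CBP112 against C646 raised 11. They share 8 (Hk1, Gpi1, Pfkm, Gapdh, Pgam2, Pkm, Ldhb and Pdk1), which is 8 of the 9 and 8 of the 11. Over all tested genes, 388 are shared between the 1197 higher with DMSO than with ethanol and the 696 higher with I-CBP112 than with C646. I-CBP112 against ethanol raised 9 members and C646 against DMSO lowered 9, and they share 7, the same genes without Pdk1. Over all genes, 395 are shared between the 689 raised and the 1166 lowered. In the opposite directions the members share 0, on counts too small to be set against those over all genes. The 2 lower with DMSO than with ethanol do not include the 1 lower with I-CBP112 than with C646, while over all genes 451 are shared between 1171 and 758. The 1 lower with I-CBP112 than with ethanol is not among the 2 higher with C646 than with DMSO, while over all genes 453 are shared between 779 and 1183.

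RefSeq promoter windows, from 250 bases before to 50 after the start, were found for 34 of the members (52 windows, some genes having several starts). A hypoxia core, ACGTG or GCGTG on either strand, was in 76.9% of the member windows, against 43.8% of all 32851 windows. By single core, ACGTG was in 48.1% of member windows against 19.6% of all, and GCGTG in 55.8% against 32.4%. CACGTG, the E-box that contains ACGTG and is bound by other factors too, was in 13.5% against 7.15%. For motifs of the reprogramming factors the gaps were smaller and ran in both directions. Their shares were 13.5% against 11.2% for AGATAA and 9.62% against 9.05% for TGATAA, both GATA sites. They were 15.4% against 17.2% for the Hand site CATCTG, 7.69% against 13.7% for the T-box motif AGGTGT and 3.85% against 3.19% for the MEF2 consensus. The list holds many genes that HIF-1 is known to act on, so a higher share of its cores may follow from the choice of genes. Base composition was not matched, windows of 1 gene overlap, and a match is only a run of letters.

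Genes of the same pathways outside the list were counted as well. Of 47 further glycolysis genes, 35 were tested, and 2 rose and 1 fell with I-CBP112, 0 changed with C646, and 9 rose and 3 fell with DMSO in the authors' deposited tables. The share called was 8.57% with I-CBP112, against 9.90% of all tested genes, so no excess was seen there, and 34.3% with DMSO, against 16.0%. With DMSO, Txnip, which restrains glucose uptake and is induced by glucose, had 67997 mean normalised counts, against 35005 with ethanol. Its log2 fold change was 0.96 (SE 0.15, adjusted p 1.18e-08) with DMSO and 0.25 (SE 0.15, adjusted p 0.378) with I-CBP112 in the authors' deposited tables. Its relative Arrdc4, induced by the same glucose sensor, rose by 0.92 with DMSO (SE 0.15, adjusted p 1.36e-08) in the authors' deposited table. I-CBP112 and DMSO differed by -0.70 for Txnip (SE 0.15, adjusted p 0.00019) and by -1.05 for Arrdc4 (SE 0.15, adjusted p 2.27e-10). Slc16a7, which encodes the transporter MCT2, fell by 1.21 with I-CBP112 (SE 0.31, adjusted p 0.00227) and by 1.42 with DMSO (SE 0.32, adjusted p 0.000172) on the log2 scale in the authors' deposited tables. Slc2a10, a further sugar transporter of the GLUT family, fell by 1.11 with DMSO (SE 0.23, adjusted p 3.08e-05) in the authors' deposited table. With I-CBP112, Minpp1 rose by 0.48 (SE 0.15, adjusted p 0.0193) and Pdhb, a subunit of pyruvate dehydrogenase, by 0.42 (SE 0.15, adjusted p 0.049) in the authors' deposited table.

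Of 42 further hypoxia genes, 40 were tested, and 4 rose and 5 fell with I-CBP112, 0 changed with C646, and 4 rose and 7 fell with DMSO in the authors' deposited tables. The share called was 22.5% with I-CBP112, against 9.90% of all tested genes, and 27.5% with DMSO, against 16.0%. The list thus held calls in both directions, with a median log2 fold change of 0.00 with I-CBP112, 0.00 with C646 and 0.01 with DMSO. Narf rose by 1.11 (SE 0.13, adjusted p 2.69e-16) and Ak4, a mitochondrial adenylate kinase, by 1.04 (SE 0.24, adjusted p 0.000221) with DMSO on the log2 scale in the authors' deposited table. Tmem45a fell by 0.83 with I-CBP112 (SE 0.15, adjusted p 1.66e-06) and by 1.36 with DMSO (SE 0.15, adjusted p 2.69e-17), and Selenbp1 by 0.82 (SE 0.20, adjusted p 0.00127) and 1.39 (SE 0.21, adjusted p 9.4e-10) with the same treatments, in the authors' deposited tables. Bhlhe40, a transcriptional repressor of the clock, rose by 0.72 with I-CBP112 (SE 0.13, adjusted p 3.27e-06) and had 0.10 with DMSO (SE 0.13, adjusted p 0.703) in the authors' deposited tables. Tfrc, the transferrin receptor, rose by 0.47 (SE 0.13, adjusted p 0.00712) and Lox, the collagen cross-linking lysyl oxidase, fell by 0.69 (SE 0.11, adjusted p 1.11e-07) with I-CBP112 in the authors' deposited table.

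**Figure D5:**
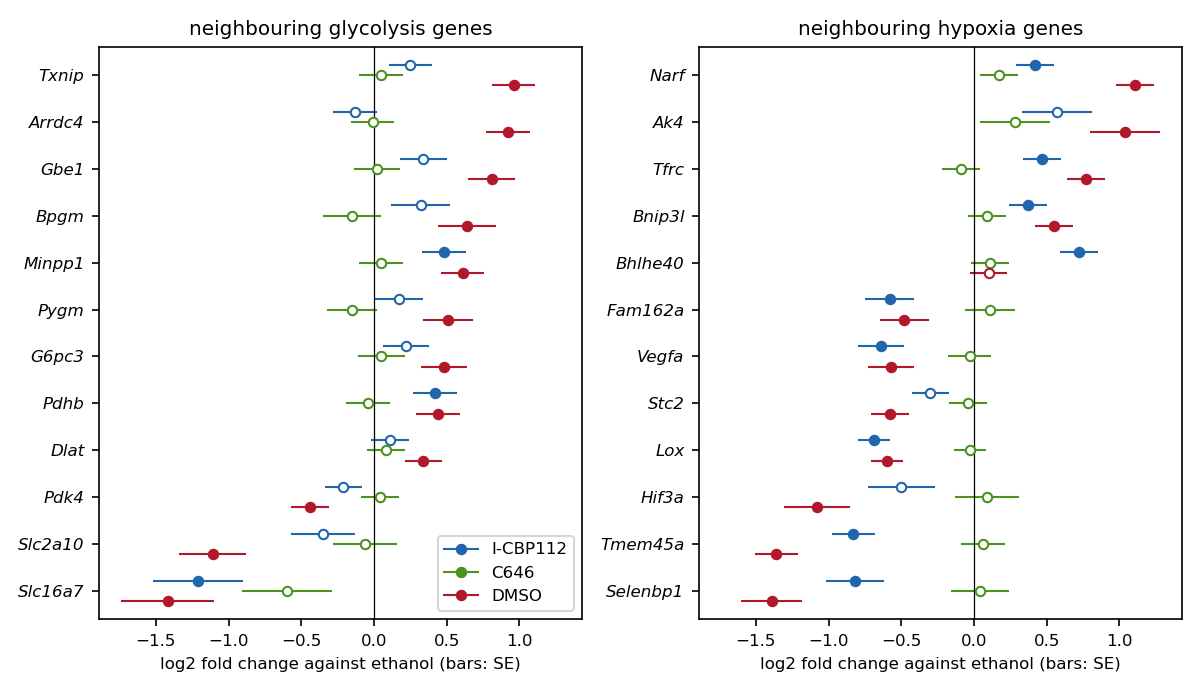
Log2 fold change against ethanol (x axis, bars SE) of the glycolysis (left) and hypoxia (right) genes outside the list that were called in at least 1 comparison, for I-CBP112, C646 and DMSO, filled where the adjusted p was below 0.05. Points of C646 are all open, and both directions appear in each panel, from Narf at 1.11 to Slc16a7 at -1.42 with DMSO.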

How the data were processed

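RNA sequencing measured gene expression in 8 libraries, 2 for each of I-CBP112, C646, DMSO and ethanol, grouped by the treatment in the labels. Reads were quantified with kallisto 0.43.1 and tested with DESeq2 (version not given in the sources used here) on GRCm38.p5, per the submitters' processing notes. How transcript estimates became gene counts is not given there. The 3 files are the authors' comparison tables of 50600 genes. Per the file headers, the signal is the authors' mean normalised count over the libraries, the log2 fold change and its standard error are the authors', the score is the authors' Wald statistic, and each p-value and adjusted p is the authors' own. The deposited length of the named transcript was not used. The reference is not named in the tables. Of 2312 genes with a mean normalised count under 0.16, 598 were lower in all 3 tables and 1708 higher in 1 only, so a group outside the 3 named serves as reference, and ethanol is the group left.

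From the deposited values, group means were rebuilt, and differences between treatments were divided by a standard error rebuilt with 1 dispersion per gene. The formula was also applied to the authors' own comparisons, over the 14830 tested genes. It came within 1% of the deposited value for 99.0% in the I-CBP112 table, 99.0% in the C646 table and 98.9% in the DMSO table. The dispersion was taken from these same deposited standard errors, so close agreement is largely built in. It is no test of the standard errors of differences between treatments. Two-sided normal p-values were adjusted by Benjamini-Hochberg over the 14830 genes that have one in the DMSO table. Intervals are 95% normal intervals. The computation was tested on simulated data with 1 known dispersion per gene, which is the model that the formula assumes. That test does not cover data where the dispersion is estimated or differs between groups. Alternatives changed the genes adjusted over, the scaling, the distribution (t with 4 degrees of freedom) and the standard error.

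Near-identical copies were found with blastn 2.17.0 on GENCODE M21 transcripts, and positions come from GENCODE M21 (GRCm38). Promoter sequences come from RefSeq (GRCm38.p6). Tables were handled in Python 3.11.15 with pandas 2.3.3 and scipy 1.17.1. The members and gene lists were chosen with earlier results of these data known. All 36 members are named. Of the other pathway genes, the up to 4 highest and 4 lowest called genes per comparison whose mean normalised count was at least 50 are given with values, over both lists together.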

Additional observations from a re-analysis of the deposited data

How the results depend on the processing

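Member counts against ethanol kept their side of the threshold under changed adjustment and scaling, at 9 to 11 for I-CBP112, 0 for C646 and 11 for DMSO. Between treatments these settings gave 7 for I-CBP112 against DMSO, 11 to 12 for C646 against DMSO and 12 for I-CBP112 against C646. With the t distribution with 4 degrees of freedom, the count of members called was 0 in each of the comparisons of I-CBP112 or DMSO with ethanol and in all 3 between treatments. The standard errors were the same there, and only the distribution to which the statistics were referred changed. Unadjusted, 10 and 11 members kept p under 0.05 for I-CBP112 and DMSO against ethanol, and 7, 11 and 12 for I-CBP112 against DMSO, C646 against DMSO and I-CBP112 against C646. The upper bound of the standard error left 1, 7 and 4 members called in those 3 comparisons. For the unadjusted counts and for those with the upper bound, the share over all tested genes was not computed.

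Signs changed only for values near 0. Scaled to equal totals, C646 against ethanol became 0.01 for Pgam1 and 0.01 for P4ha1. Centred on the median gene, I-CBP112 against DMSO became 0.00 for Gapdh and 0.01 for Pkm, and C646 against DMSO became 0.01 for Pfkp. No scaling moved the median by over 0.03 on the log2 scale. Single calls changed for Eno2 and Pdk1 with I-CBP112 against ethanol, and Pfkl passed for C646 against DMSO at 0.0474 when genes with a mean normalised count under 50 were left out. Counts of other pathway genes stayed at 10 to 12 for I-CBP112 and 20 to 24 for DMSO.

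No paired analysis was possible because the tables hold comparisons and the library numbers 2 and 3 have no columns of their own, and leaving out single libraries was not run for the same reason. The 2 libraries per group limit the precision, with a median standard error of 0.18 on the log2 scale. A single library that stands apart could not be looked for.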
